A study of Homo sapiens with 8 samples.

Results

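The GATA6-AS TFR1 RNA oligo was set against a reaction with no oligo to find which pieces of human genomic DNA it held. The members are all regions of the lists made for that contrast: 104786 regions with more signal with the oligo, called captured here, and 36330 with more signal without it, called control. These are 141116 of the 327994 regions listed for the 3 oligos of the study, or 43.0%. No value was used to choose among them. DNA came from H1, an established human embryonic stem cell line grown in FTDA medium, and had been freed of RNA and sonicated to an average of 200 to 300 bp. In both groups 6 to 7 µg of it was kept for 1 h at 37 °C with 50 mM KCl and 5 mM MgCl2. The GATA6-AS TFR1 group (2 libraries) held 20 pmol of biotinylated RNA oligo, and the no oligo group (2 libraries) held none. Whatever stayed on streptavidin beads was released with RNases and sequenced from 2 independent experiments. The reactions contained naked DNA with no chromatin, no cells and no full-length RNA, so nothing below bears on binding inside a cell or on expression.

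In an RNA-DNA triplex, a single RNA strand lies in the major groove of intact duplex DNA and pairs with the purines of one strand, so long runs of purines (A and G) are the classic target. GATA6-AS is the noncoding transcript antisense to GATA6, named GATA6-AS1 in gene tables, and GATA6 encodes a zinc finger transcription factor of endoderm and heart. Long noncoding RNAs of this kind have been proposed to reach distant genes by such pairing, and a capture on naked DNA asks which loci the RNA can hold by sequence alone. Each region carries a single value, the authors' log2 ratio of the oligo over the no-oligo signal, positive for captured and negative for control regions. The lists give no value per library and no p-value. How far the 2 libraries of a group differed, and how deeply they were read, are therefore unknown, no test of the contrast could be made, and the values below describe these lists. The lists of the MEG3 TFR1 and MEG3 TFR2 oligos, given beside them in places, were made against the same no-oligo libraries, and differences between oligos were not tested.

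The oligo's own sequence is not printed, but the DNA it held can be shown at promoters. The first sequences below are the 250 bases before the starts of GATA6-AS1 and GATA6, the locus the oligo comes from. The 6 that follow had the highest ratios among promoters lying wholly inside captured regions of at least 500 bp, a set of 747 genes. All are from RefSeq (GRCh38.p14), written 5′ to 3′ on the gene's strand. Capitals mark the longest run of purines, or of pyrimidines (C and T, hence purines on the other strand).
GATA6-AS1: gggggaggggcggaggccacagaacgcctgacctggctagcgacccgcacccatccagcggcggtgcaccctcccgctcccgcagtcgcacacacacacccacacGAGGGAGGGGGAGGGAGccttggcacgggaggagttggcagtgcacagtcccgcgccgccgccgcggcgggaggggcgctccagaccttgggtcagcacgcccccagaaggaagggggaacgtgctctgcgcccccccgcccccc
GATA6: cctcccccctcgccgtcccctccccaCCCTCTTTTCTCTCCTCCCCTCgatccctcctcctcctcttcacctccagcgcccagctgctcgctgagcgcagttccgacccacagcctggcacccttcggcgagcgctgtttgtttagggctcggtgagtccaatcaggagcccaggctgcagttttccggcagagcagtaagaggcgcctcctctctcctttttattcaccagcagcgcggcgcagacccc
COX8C: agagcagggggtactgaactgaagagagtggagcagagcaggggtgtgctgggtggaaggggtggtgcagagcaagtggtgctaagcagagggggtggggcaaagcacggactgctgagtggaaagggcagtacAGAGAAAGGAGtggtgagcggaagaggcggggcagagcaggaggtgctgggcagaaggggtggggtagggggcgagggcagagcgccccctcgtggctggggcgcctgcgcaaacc
FDXR: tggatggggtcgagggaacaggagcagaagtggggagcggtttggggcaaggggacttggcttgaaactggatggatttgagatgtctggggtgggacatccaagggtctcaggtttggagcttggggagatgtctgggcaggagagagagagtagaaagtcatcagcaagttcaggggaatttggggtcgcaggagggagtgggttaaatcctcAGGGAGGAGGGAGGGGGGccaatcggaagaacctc
ARHGEF2: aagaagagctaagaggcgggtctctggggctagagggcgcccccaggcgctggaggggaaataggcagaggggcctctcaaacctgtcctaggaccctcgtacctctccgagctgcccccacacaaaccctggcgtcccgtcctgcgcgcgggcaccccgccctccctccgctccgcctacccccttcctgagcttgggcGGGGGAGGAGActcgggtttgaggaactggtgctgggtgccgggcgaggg
NLGN2: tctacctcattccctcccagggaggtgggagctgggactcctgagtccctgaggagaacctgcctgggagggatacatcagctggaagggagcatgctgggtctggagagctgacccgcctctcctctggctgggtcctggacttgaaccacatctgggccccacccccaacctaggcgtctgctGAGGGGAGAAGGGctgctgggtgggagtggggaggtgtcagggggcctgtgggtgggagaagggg
TEDC1: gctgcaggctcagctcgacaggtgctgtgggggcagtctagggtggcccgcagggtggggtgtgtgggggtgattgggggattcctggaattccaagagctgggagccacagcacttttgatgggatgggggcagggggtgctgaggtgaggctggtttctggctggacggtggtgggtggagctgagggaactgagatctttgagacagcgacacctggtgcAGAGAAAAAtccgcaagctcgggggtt
ORAI3: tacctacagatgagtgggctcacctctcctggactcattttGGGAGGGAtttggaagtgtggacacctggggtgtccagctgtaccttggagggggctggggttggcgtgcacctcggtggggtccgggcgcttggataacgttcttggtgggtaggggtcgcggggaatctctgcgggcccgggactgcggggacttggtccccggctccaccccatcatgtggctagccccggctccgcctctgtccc

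Neither promoter of the home locus was in a captured or a control region. The sequence before GATA6-AS1 (chr18:22168969-22169218, minus strand) held a purine run of 17 bases and 74.4% G+C. The one before GATA6 (chr18:22169339-22169588, plus strand) held the longest run of the 8, 22 pyrimidines. The highest captured ratio was at COX8C, a testis isoform of a cytochrome c oxidase subunit (chr14:93346932-93347181, plus strand), where the region had 9.0 times more signal with the oligo and the longest run was 11 bases. FDXR, ferredoxin reductase of mitochondria (chr17:74868754-74869003, minus strand), followed at 8.44-fold with a run of 18. Ratios were 6.60-fold at ARHGEF2, a guanine nucleotide exchange factor (chr1:155978548-155978797, minus strand, run of 11), and 6.58-fold at NLGN2, a synaptic adhesion protein (chr17:7407595-7407844, plus strand, run of 13). TEDC1, a tubulin complex subunit (chr14:105489605-105489854, plus strand), had 6.07-fold with a run of 9, and ORAI3, a calcium channel (chr16:30948818-30949067, plus strand), 5.71-fold with a run of 8. Of these 6 promoters, 1 had a run of 15 bases or more, and their G+C content ran from 56.8% to 68.8%.

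Over the genome, captured DNA outweighed control DNA. Captured regions covered 49.5 Mb and control regions 10.9 Mb, a ratio of 2.88 captured regions per control region. The captured log2 ratio ran from 0.29 to 5.85 with a median of 1.34, which is 2.53-fold. A ratio of at least 2-fold was reached by 86.1% of captured regions, at least 4-fold by 10.2% and at least 8-fold by 0.677%. Control regions were fewer. Their median log2 ratio was -1.57, or 2.97-fold towards no oligo, and 20.9% reached 4-fold, but most were narrow, and ratios differed with width as given below. The excess of captured regions was smaller among strong ratios, with 1.83 captured per control region once only log2 ratios of 1.5 or more, in either direction, were kept. No captured region overlapped a control region, and the median distance from a captured to the nearest control region was 19.65 kb.

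Captured regions were also wider. Their width had a median of 400 bp, a 90th percentile of 800 bp and a maximum of 4150 bp, against a median of 250 bp in the control list. Regions of up to 300 bp made up 27.4% of captured but 70.4% of control regions. Widths above 500 and up to 1000 bp were seen in 24.1% of captured and 4.37% of control regions, and widths above 1000 and up to 2000 bp in 4.04% and 0.683%. Above 2000 bp the shares were alike, at 0.233% (244 regions) and 0.261% (95 regions). The narrow captured regions had the higher ratios, with a median log2 ratio of 1.55 up to 300 bp against 1.28 above 300 and up to 500 bp, and 1.20 above 500 and up to 1000 bp. The lowest ratio listed also fell with width, from 0.70 up to 300 bp to 0.29 above 500 and up to 1000 bp, so narrow regions of low ratio are not in the list. Beyond 1000 bp the median rose again, to 1.27 and then 1.37 above 2000 bp. In the control list the median was -1.72 up to 300 bp and, in the wider classes in turn, -1.26, -1.04, -1.11 and -1.20, smaller in size than the captured median in each class above 300 bp. Beside these, the captured regions of MEG3 TFR1 and MEG3 TFR2 had a median width of 350 bp, and 20.9% and 11.2% of them were above 500 and up to 1000 bp wide.

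**Figure D1:**
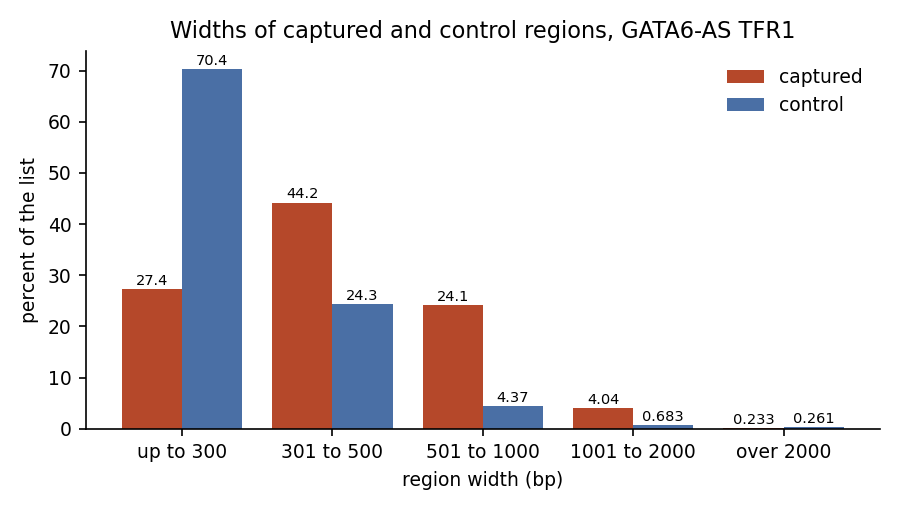
Percent of regions (y axis) in 5 width classes in bp (x axis) for the captured and the control list of GATA6-AS TFR1; numbers over the bars are the percentages. Control regions peak at up to 300 bp with 70.4%, and captured regions in the next class, up to 500 bp, with 44.2%.

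The widest captured regions lay in or across protein-coding genes. The widest captured region spanned 4150 bp over PTGER1, a prostaglandin E receptor, and GIPC1, a scaffold protein (chr19:14474451-14478600, log2 ratio 1.55, 2.93-fold). Next were 4000 bp in TTYH1 (2.82-fold) and 3900 bp in RARA, the retinoic acid receptor alpha (chr17:40344801-40348700, 3.06-fold). Regions of 3700 bp lay in MUC6, a gel-forming mucin (2.62-fold), and in BCAM, a laminin receptor (3.06-fold). SETD1A, a histone H3 lysine methyltransferase, held 3600 bp (2.36-fold), CPSF1, a cleavage and polyadenylation factor, 3500 bp (2.96-fold) and COL1A1, a chain of type I collagen, 3450 bp (3.04-fold). A region of 3400 bp lay over SLC39A5, a zinc transporter, and ANKRD52 (2.25-fold). Of the 5 widest control regions, none touched a protein-coding gene. The first, 9950 bp on chromosome 19 (chr19:27347451-27357400), was 2.62-fold higher without the oligo.

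Captured regions were spread unevenly over chromosomes. Per Mb of chromosome, measured up to the last region listed, captured regions ranged from 14.5 on chromosome 13 and 15.6 on chromosome 18 to 143 on chromosome 19, a 9.86-fold range around a median of 33.7 over the 22 autosomes. Chromosomes 17, 22, 20 and 16 followed with 88.8, 76.9, 61.9 and 58.4 per Mb. Control regions ranged only from 8.16 per Mb on chromosome 13 to 20.0 on chromosome 20, a 2.45-fold range. As a result the number of captured regions per control region went from 1.51 on chromosome 18, where GATA6-AS1 lies, to 7.29 on chromosome 19. Counted in bases the highest value was again chromosome 19, at 12.4, and the lowest chromosome 21, at 1.39. On chromosome 18 the excess was lost among strong ratios: among log2 ratios of 1.5 or more in either direction there were 0.979 captured regions per control region.

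**Figure D2:**
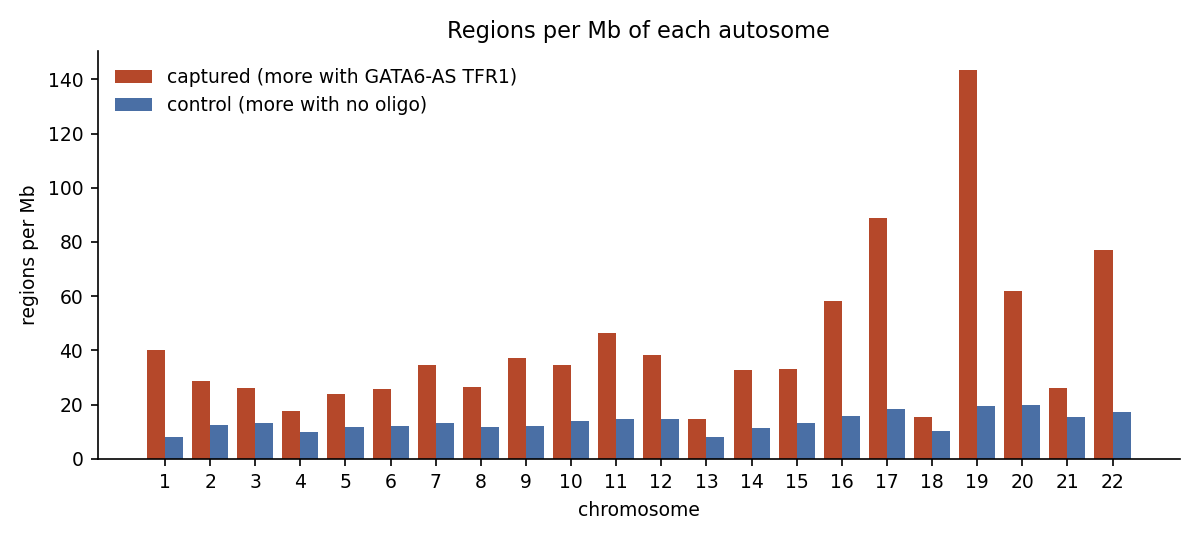
Regions per Mb (y axis) on each autosome (x axis) for the captured and the control list of GATA6-AS TFR1. Captured regions reach 143 per Mb on chromosome 19 and control regions stay at or under 20.0 on every autosome.

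The chromosomes dense in captured regions were the gene-dense ones. Over 22 autosomes, captured regions per Mb and protein-coding genes per Mb had a Pearson correlation of 0.96 and a Spearman rank correlation of 0.91, and the number of captured per control region had 0.92 and 0.89. The same pair of values was 0.69 and 0.72 for control regions per Mb. These are descriptions over chromosomes of one set of libraries, with 22 points that share them, and other properties that go with gene density were not tested. The median width of captured regions rose with gene density as well, from 350 bp on chromosome 13 to 500 bp on chromosome 19 (r 0.80). The median log2 ratio did not: it stayed between 1.27 and 1.39 on all autosomes and had an r of -0.54 with gene density. Chromosome 19 thus had more and wider captured regions, without a higher median log2 ratio (1.30). Ratios in the list also differed with width, and chromosomes were not compared at equal width. Chromosome X had 70 captured and 3 control regions, far under any autosome, and the cause was not tested.

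Along the chromosomes captured regions sat close together. The median gap from a captured region to the nearest other one was 2.25 kb, and 34.3% had one within 1 kb. In the control list the median gap was 17.3 kb. Runs of at least 3 captured regions with gaps of at most 5 kb, called clusters here, numbered 8525 and held 51824 regions, 49.5% of the list, with a median of 4 regions each. Of these clusters, 1175 held at least 10 regions. The control list had 514 such clusters with 7.53% of its regions, although a list of fewer regions also has wider gaps. The captured lists of MEG3 TFR1 and MEG3 TFR2, with 89739 and 73546 regions, had 30.7% and 21.9% of theirs in clusters. At the other extreme, 2080 captured regions (1.99%) stood more than 100 kb from any other.

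The largest clusters covered whole gene neighbourhoods. One of 70 regions stretched over 138.4 kb around NOTCH1, a receptor of cell-to-cell signalling (chr9:136492151-136630550). Its captured regions filled 48.4 kb and no control region lay between them. A second cluster of 70 regions on chromosome 11 (chr11:765101-890150) ran across PIDD1, RPLP2, PNPLA2, CD151, TSPAN4 and CHID1, among other genes, with 2 control regions inside. The next was 68 regions over MICALL2 and INTS1, a subunit of the Integrator complex (chr7:1380501-1499800). Chromosome 19 held a cluster of 67 regions over ARID3A, CNN2, ABCA7 and POLR2E (chr19:973401-1096000) and one of 63 over STK11, a tumour suppressor kinase, MIDN, CIRBP and EFNA2 (chr19:1207151-1340000), neither with a control region inside.

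In fixed windows of 100 kb, 3 of the 5 largest clusters were among the 10 densest windows, those of MICALL2, of PIDD1 to CHID1 and of NOTCH1. The window over MICALL2 and INTS1 held 60 captured regions, against a median of 3 over the 19078 windows with any. It was followed by 56 in the window of CACNA1H, a T-type calcium channel, and 55 in the chromosome 11 window from PIDD1 to CHID1. The imprinted neighbourhood of IGF2, INS and TH had 53 regions and no control region, that of SSTR5, a somatostatin receptor, 52, and that of BAHCC1 51. Windows of 50 regions covered NOTCH1, EFNA3 and EFNA4 with ADAM15, and SAMD11 with HES4. Counts of the MEG3 oligos varied between these windows. MEG3 TFR1 and MEG3 TFR2 had 8 and 11 captured regions in the MICALL2 window and 5 and 6 at CACNA1H, but 28 and 22 at EFNA3 and EFNA4.

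Control regions clustered elsewhere. The largest control cluster, 70 regions over 91.7 kb on chromosome 1 (chr1:143184551-143276250), touched no protein-coding gene and held no captured region. The same was true of 64 regions on chromosome 21 (chr21:10632301-10739550), 39 on chromosome 10 (chr10:41843101-41916200) and 38 on chromosome 19 (chr19:24351051-24403900). The remaining one of the 5 largest lay in KANSL1, a subunit of a histone acetyltransferase complex (chr17:46106351-46212400), and there 59 control regions were interleaved with 16 captured regions.

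The authors named genes for all but 8.14% of captured regions, but the names point to the region's own gene only when they are plain. A plain name was given to 58146 captured regions (55.5%), and 89.1% of those names found in the RefSeq table belonged to a gene the region touched. Names followed by a plus sign in brackets were given to 25777 regions (24.6%). Of these names 0.725% belonged to a touched gene, and the named gene lay a median of 50.1 kb away, although 41.0% of these regions lay inside some protein-coding gene. The meaning of the sign is not given in the sources used here. Names written as a pair, each with a sign (9.54%), touched in 2.71% and names with a minus sign (2.23%) in 1.22%. The widest captured region shows the effect: it carried the name SNRPGP15(+) while covering PTGER1 and GIPC1. Among frequent names, SORCS2 was given to 122 regions, of which 113 touched it, but EIF2B5, a gene of 9.95 kb, to 106 regions of which 0 touched it, and ELAVL1 to 105 of which 5 did. The most frequent names, Y_RNA (547 regions on 22 chromosomes) and Metazoa_SRP (219), stand for many repeated copies. Genes below were therefore taken from coordinates.

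At least one captured region lay inside or within 1 kb of 14177 of 19974 protein-coding genes (71%), and a control region at 7985 (40%). Genes with many captured regions were long. GSE1 led with 143, followed by RBFOX3, the neuronal splicing factor known as NeuN, with 120, SORCS2, a sortilin receptor, with 114, and PTPRN2, a phosphatase-like protein of secretory vesicles, with 99. MAD1L1 of the spindle checkpoint had 96, the Arf exchange factor IQSEC1 95, CDH23, a cadherin of hair cell tip links, 93, CDH4 91 and CAMTA1 86. In these genes captured regions outnumbered control regions, which ran from 6 in RBFOX3 and in SORCS2 to 16 in CDH23. Control regions were most numerous in KANSL1, with 66 against 23 captured. RBFOX1 followed with 34 against 50, TPTE with 30 against 8, DUSP22 with 29 against 10 and the nuclear receptor RORA with 29 against 19. DLGAP1 had 27 control regions, NAV2 26, ERC2 25, PAAF1 24 and RAD51B 24.

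Scaled by length, short genes were the densest. Counted with 1 kb to each side of the gene in both the regions and the length, genes of up to 10 kb had 20.8 captured regions per 100 kb and genes over 300 kb had 1.95, while control regions stayed between 1.01 and 1.84. The ranking that follows counts regions within 1 kb of the gene but divides by the length of the gene alone. Among genes of at least 10 kb the densest were EPS8L1 (9.95 captured regions per 10 kb), RUNDC3A (9.93), DVL1, a Dishevelled protein of the WNT pathway (9.90), LOC124904106 (9.88) and MAP2K7, a kinase upstream of JNK (9.43). ABCA2, a lipid transporter, had 9.22, the triglyceride enzyme DGAT1 8.97, the lysosomal protease CTSD 8.95, TLE5 of the Groucho family 8.95 and ZBTB7B, a T cell transcription factor, 8.94. None of these 10 had a control region.

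Within genes, the start stood out. A captured region lay within 1 kb of either end of 9357 protein-coding genes (46.8%), a control region at 1182 (5.92%), and both at 583 (2.92%). The median of the highest log2 ratio at these ends was 1.53, or 2.88-fold, and 24.5% of all genes had a region of log2 ratio at least 1.5 there. Strand was known for 15812 genes, of which 37.6% had a captured region within 1 kb of the start and 22.9% within 1 kb of the far end, with 14% having both. The order was opposite for control regions, with 2.68% at the start and 3.54% at the far end. Among the regions themselves, those at a start had a median log2 ratio of 1.41, against 1.31 at a far end, 1.32 inside protein-coding genes and 1.35 between genes. Starts took 5.86% of captured and 0.927% of control regions, and DNA between genes 27.6% and 36.3%, leaving out chromosome 8 in these shares. Within 1 kb of either end, MEG3 TFR1 had a captured region at 28.2% of genes and MEG3 TFR2 at 22.2%.

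Position by position, captured DNA flanked the start on both sides with a dip at the start itself. The share of genes covered was 12.8% at 500 bp downstream, 9.10% at the start and 10.5% at 250 bp upstream, against a mean of 4.80% beyond 4 kb. The peak was 2.67 times that outer level. Around the far end the curve was nearly flat, with a peak of 7.74% 500 bp before the end against 6.21% beyond 4 kb. Control regions were scarcest at the start, at 0.209% of genes against 0.526% beyond 4 kb. For MEG3 TFR1 the peak was lower, 4.62% at 750 bp downstream over an outer level of 2.85%. The MEG3 TFR2 curve dipped at the start, to 1.25% against 1.97% beyond 4 kb. It too was raised downstream, with a peak of 2.57% at 1250 bp, or 1.30 times its outer level.

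**Figure D3:**
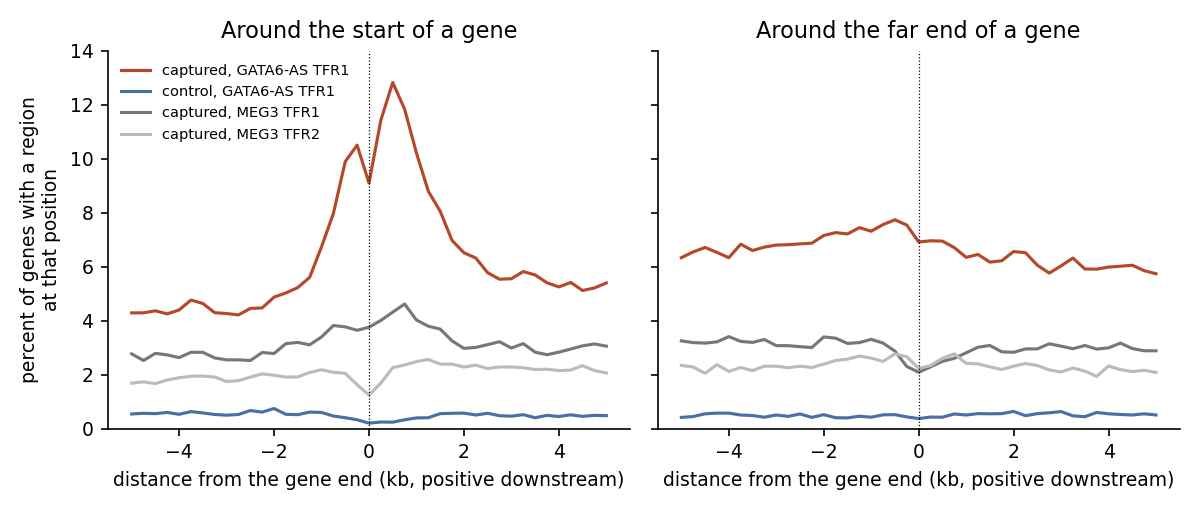
Percent of 15812 genes of known strand covered by a region (y axis) at each distance in kb (x axis) from the gene start (left) and the far end (right), for the captured and control lists of GATA6-AS TFR1 and the captured lists of both MEG3 oligos. The GATA6-AS TFR1 curve peaks at 12.8% downstream of the start, dips to 9.10% at the start, and has no comparable peak at the far end.

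The strongest broad regions at gene ends, 1000 bp or more, were mostly at starts where strand was known. TMEM278 had 8.34-fold over 1150 bp (chr1:1426401-1427550), and SYCE1, a protein of the synaptonemal complex, 7.87-fold over 1700 bp (chr10:133566351-133568050), both at the start. GPR108 had 7.41-fold at its far end. NCKAP5L had 7.33-fold and TWIST1, a transcription factor of mesoderm and neural crest, 7.11-fold (chr7:19117601-19118700), with strand unknown for both. STRBP, an RNA-binding protein, had 6.63-fold and UBE2M, which conjugates NEDD8, 6.20-fold, at their starts. One region of 6.07-fold lay at the start of TEDC1 and the far end of CRIP1 together, and is the one shown above over the TEDC1 promoter. SEMA6B, a semaphorin, closed the 10 with 5.83-fold.

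Gene families differed widely in how many members had a captured region at an end, read against the 46.8% of all protein-coding genes. The highest share was in the HOX genes of the body axis, with 36 of 39 (92.3%) and a median log2 ratio of 1.64. HOX genes sit in tight groups, so neighbours share regions. HOXC8 had 4.46-fold, HOXC6 4.24-fold, HOXC9 4.19-fold and HOXB2 3.92-fold. WNT ligands followed with 16 of 19 (84.2%), led by WNT7B at 8.82-fold, WNT7A at 5.13-fold, WNT4 at 5.10-fold and WNT11 at 4.66-fold. LIM homeobox genes had 10 of 12, with LHX6 at 10.1-fold at its start and LHX3 at 3.98-fold. NK homeobox genes had 11 of 14, with NKX1-1 at 5.74-fold and NKX2-4 at 4.87-fold. Ephrins and their Eph receptors, which guide axons and vessels, had 16 of 22, with EPHA8 at 8.06-fold and EFNA4 at 6.35-fold. For none of these families did the lists allow a test.

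Other developmental families stood nearer the background. T-box genes had 11 of 17, led by TBXT, the mesoderm regulator brachyury, at 7.50-fold at its start. Paired box genes had 6 of 9, with PAX2 at 4.97-fold and PAX6, the eye regulator, at 4.71-fold. SOX genes had 11 of 19, with SOX14 at 6.12-fold and SOX21 at 4.82-fold, and forkhead genes 26 of 51, with FOXJ1 of ciliated cells at 6.90-fold. Krüppel-like and SP genes had 13 of 27, with SP7, the bone regulator, at 10.6-fold. Frizzled receptors had 5 of 10, with FZD9 at 4.22-fold.

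Among structural and channel genes, voltage-gated calcium channels had 20 of 26, with CACNA1D at 11.4-fold at its start, CACNG8 at 10.8-fold and CACNA1A at 7.41-fold. Collagens had 25 of 44, and COL27A1 at 19.1-fold was the highest named member of any family. Potassium channels had 52 of 96, with KCNC2 at 5.44-fold, and ribosomal protein genes 41 of 77, with RPS21 at 6.17-fold. The 25 of 53 clustered protocadherins are mainly one shared region at the far end of the gamma genes (3.34-fold), so they are not separate cases. Zinc finger genes, with 191 of 509 (37.5%), were under the background, though ZNF888 reached 10.2-fold and ZNF701 9.14-fold.

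The families farthest under the background were the tandem families of short genes. Histone genes had 12 of 79 (15.2%), keratin-associated proteins 13 of 94 (13.8%), beta defensins 5 of 39 (12.8%) and olfactory receptors 15 of 392 (3.83%). Bitter taste receptors had 0 of 25 and type I interferons 0 of 17. Control regions were at an end of 9 olfactory receptor genes (2.30%), 4 histone genes (5.06%) and 3 beta defensins (7.69%). The same held for 1 keratin-associated protein gene (1.06%), 1 bitter taste receptor (4.0%) and 1 interferon (5.88%). The share of all genes was 5.92%. Apart from the olfactory receptors, these are counts of 1 to 4 genes, too few to place a family under or above that share. In all, 17 of 24 families were above the background share. Some of them were close to it: clustered protocadherins at 47.2%, Krüppel-like and SP genes at 48.1%, frizzled receptors at 50% and forkhead genes at 51.0%. Chromosome X, nearly empty in these lists, holds 848 of the protein-coding genes, and without it the background was 48.8% and 16 families were above it.

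**Figure D4:**
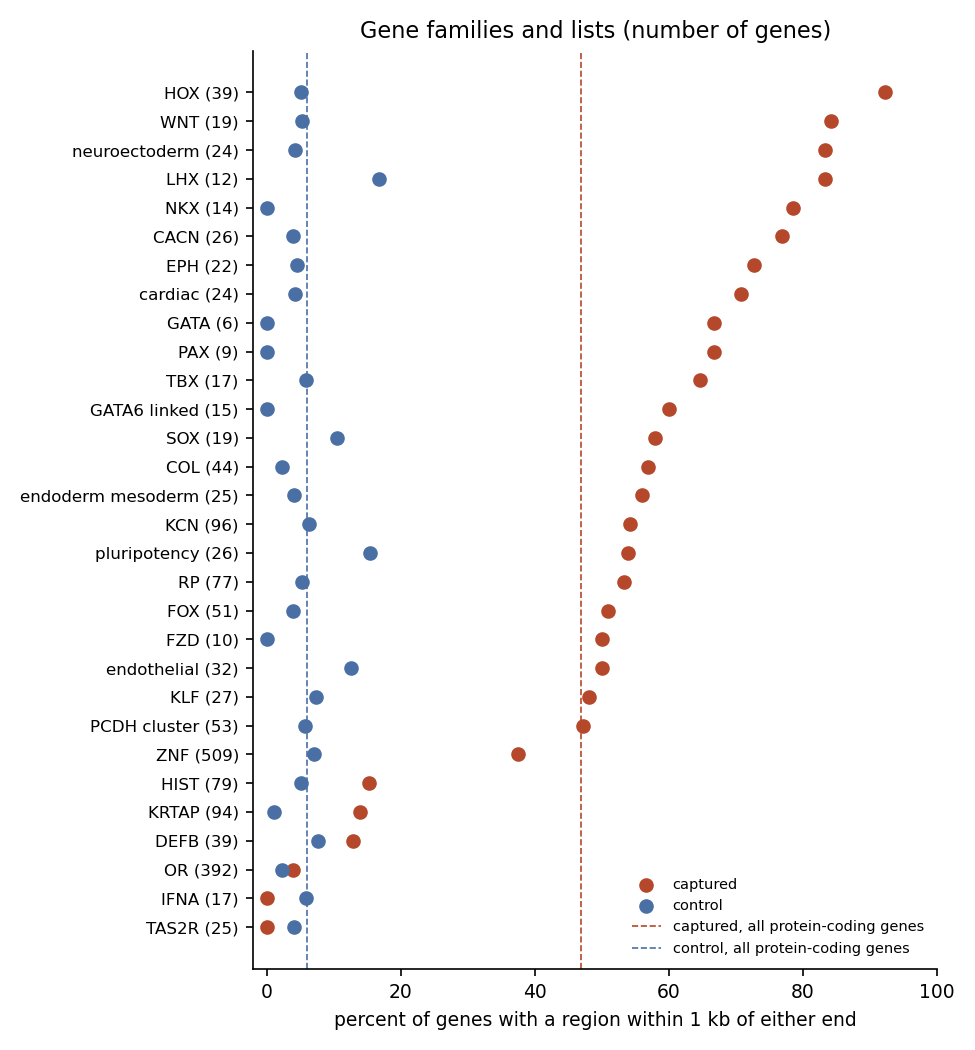
Percent of genes with a region within 1 kb of either end (x axis) for 24 gene families and 6 gene lists (rows, number of genes in brackets); points are the captured and control lists of GATA6-AS TFR1 and dashed lines the share of all protein-coding genes. Captured shares run from 92.3% for HOX genes to 0 for bitter taste receptors and type I interferons, around a background of 46.8%.

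Lists of genes that fit the stem cell and GATA6 setting had shares from 50% to 83.3%, of which those of the endothelial (50%), pluripotency (53.8%) and endoderm and mesoderm (56.0%) lists were near the 46.8% of all genes. The GATA family itself had 4 of 6 members with a captured region at an end: GATA4 at 3.52-fold, GATA5 at 3.18-fold, and GATA2 and GATA3, regulators of blood and T cells, at 2.35-fold and 2.28-fold at their far ends. GATA1 and GATA6 had none, and GATA1 lies on chromosome X, which is nearly empty in these lists. Among 15 genes linked to GATA6 or to GATA6-AS1, 9 had one. With a log2 ratio of at least 1.5, 3 (20.0%) had one, near the 24.5% of all genes for so short a list. The 9 included the cofactors ZFPM2 (4.72-fold) and ZFPM1 (2.86-fold, with 41 regions in the gene), FOXA2 (3.34-fold) and NKX2-5 (2.09-fold). The others were the lysyl oxidases LOXL3 (2.71-fold), LOX (2.47-fold), LOXL1 (2.37-fold), LOXL2 (2.01-fold) and LOXL4 (1.91-fold). LOXL2 has been described as a partner of GATA6-AS in endothelial cells. DAB2, GATA6, POSTN, PTGS2, SOX17 and TBX5 had none at an end, and of these TBX5 alone had captured regions inside the gene, 6 of them.

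Regulators of endoderm and mesoderm had 14 of 25 (56.0%). Beside TBXT and GATA4, these included MIXL1 at 3.51-fold at its start, FOXA1 at 3.28-fold and FOXA3 at 3.22-fold, while CER1, CXCR4, GSC and NODAL had none at an end. Heart genes had 17 of 24 (70.8%). The ventricular light chain MYL3 was at 7.39-fold, the transcription factor HAND2 at 4.35-fold, troponin genes TNNC1, TNNI3 and TNNT2 at 3.90-fold, 3.53-fold and 3.23-fold, the myosin heavy chain MYH6 at 3.84-fold, HAND1 at 3.83-fold and MEF2D at 3.83-fold. Phospholamban (PLN) and MEF2C had none at an end.

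Early neural genes had the highest share of the lists, 20 of 24 (83.3%). NEUROG1 was at 5.92-fold, PAX6 at 4.71-fold, PAX7 at 4.13-fold with 39 regions in the gene, nestin (NES) at 4.0-fold, SOX1 at 3.75-fold, EMX1 at 3.74-fold and SIX3 at 3.35-fold. EMX2, EN1, NEUROG2 and SOX3 had none at an end, and SOX3 lies on chromosome X, which is nearly empty in these lists. Genes of the pluripotent state, the state of the cells the DNA came from, had 14 of 26 (53.8%). OTX2 was at 7.50-fold, LIN28A at 6.5-fold, L1TD1 at 5.75-fold, DNMT3B at 5.09-fold, POU5F1 (OCT4) at 3.42-fold, UTF1 at 3.13-fold, ZSCAN10 at 3.05-fold and KLF2 at 3.00-fold. KLF4 had no captured region. This list also had 4 genes with a control region at an end (15.4%), against 5.92% of all protein-coding genes. Endothelial genes had 16 of 32 (50%), with ROBO4 at 7.14-fold, ESAM at 5.09-fold, HEY1 at 4.68-fold, PLVAP at 3.97-fold, endoglin (ENG) at 3.81-fold, NOTCH1 at 3.54-fold, EPHB4 at 3.53-fold and SOX18 at 3.36-fold. KDR, EMCN and EFNB2 had none. In this list 4 genes had a control region at an end (12.5%), against the same 5.92%. Counts of 4 genes are small, and neither share was tested.

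Promoter sequence could be set against capture directly in 21983 windows of 300 bases, from 250 before to 50 after a RefSeq gene start, none on chromosome 8. A captured region covered at least 50% of 2243 windows (10.2%) and a control region of 54 (0.246%). Capture was most frequent at intermediate to high G+C content. No window under 40% G+C was captured (0 of 1399), then 1.78% at 40 to 50%, 12.4% at 50 to 60% and 20.3% at 60 to 70%, but 2.55% at 70% or more. The middle of captured windows was thus close to that of all windows, a median of 63.0% against 62.3% G+C, while the control windows were lower at 54.3%. For MEG3 TFR1 the share was highest at 50 to 60%, with 8.07%, and for MEG3 TFR2 also, with 3.23%.

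Captured windows more often held long purine runs. A run of at least 15 bases on either strand was in 31.0% of captured windows (696), in 20.7% of all windows and in 14.8% of control windows (8 of 54). The difference was seen inside each G+C class: 40.4% of captured against 21.8% of other windows at 40 to 50%, 35.7% against 22.3% at 50 to 60%, 29.1% against 19.04% at 60 to 70% and 27.6% against 17.2% at 70% or more. Read the other way, 15.3% of windows with such a run were captured and 8.87% of those without. The share captured rose from 6.48% with a longest run of up to 9 bases to 10.2% at 10 to 14 and 16.1% at 15 to 19, and then rose no further, at 13.2% for 20 to 29 and 15.4% for 30 or more. For MEG3 TFR1 the shares kept rising with length, from 1.01% to 3.78%, 7.05%, 10.7% and 13.1%. Those of MEG3 TFR2 also kept rising, from 0.556% to 1.63%, 2.77%, 3.51% and 4.12%. A run of at least 15 bases was in 43.6% of windows captured by MEG3 TFR1 and 38.7% of those captured by MEG3 TFR2.

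**Figure D5:**
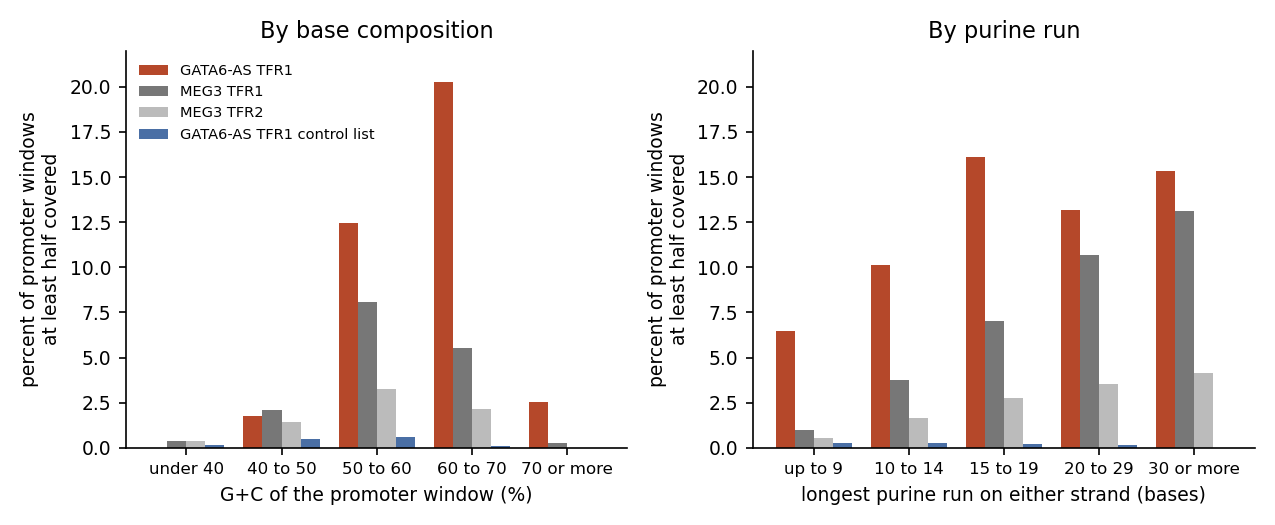
Percent of promoter windows at least 50% covered by a region (y axis) by G+C class (left) and by the longest purine run on either strand (right), for the captured lists of the 3 oligos and the control list of GATA6-AS TFR1. The GATA6-AS TFR1 share is highest at 60 to 70% G+C, with 20.3%, and stops rising at runs of 15 to 19 bases, where the share for MEG3 TFR1 goes on to 13.1%.

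Shares also differed between kinds of purine repeat. Windows were searched on both strands for 4 words of 8 letters, which can overlap one another. GGAGGAGG was in 19.04% of captured and 12.8% of all windows, and GGGAGGGA in 14.6% and 9.23%. GAGAGAGA was in 3.74% against 3.16%, and GAAGAAGA in 1.34% against 1.61%. These shares pool all G+C classes, and the words themselves differ in G+C. At 50 to 60% G+C, GAGAGAGA was in 6.09% of captured and 4.07% of other windows. For GGAGGAGG these were 16.1% and 10.1%, for GGGAGGGA 14.5% and 7.53%, and for GAAGAAGA 1.97% and 2.24%. At 60 to 70% they were 2.85% and 2.81% for GAGAGAGA, and 19.7% and 14.2% for GGAGGAGG. With all G+C classes pooled, 16.1% of windows with GGGAGGGA were captured, against 9.60% without it. For GGAGGAGG the values were 15.2% and 9.47%. For GAGAGAGA they were 12.1% and 10.1%, and for GAAGAAGA 8.45% and 10.2%. Beside these, MEG3 TFR1 captured 13.8% of windows with GAGAGAGA and 3.63% of those without, and 8.45% with GAAGAAGA and 3.88% without. It captured 8.67% with GGGAGGGA and 3.47% without, and 6.79% with GGAGGAGG and 3.54% without. For MEG3 TFR2 the values were 4.60% and 1.53% for GAGAGAGA, and 2.54% and 1.61% for GAAGAAGA. They were 2.76% and 1.51% for GGGAGGGA, and 2.63% and 1.48% for GGAGGAGG. Higher shares with GGGAGGGA and GGAGGAGG were thus not particular to GATA6-AS TFR1. These words were found in a window and are not shown to be the site of binding.

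The home locus held captured DNA of modest ratio. GATA6-AS1 (chr18:22166898-22168968, minus strand, a noncoding RNA gene of 2.07 kb) contained one captured region of 350 bp (chr18:22167751-22168100, log2 ratio 1.04, 2.05-fold), below the median of the list. Another lay 548 bp beyond its far end (chr18:22166001-22166350, log2 ratio 1.24, 2.37-fold). GATA6, the neighbour on the other strand (chr18:22169589-22202528), contained neither a captured nor a control region of this oligo, whereas MEG3 TFR1 had a captured region of 200 bp inside it (chr18:22170001-22170200, 6.75-fold). Within 100 kb of GATA6-AS1 there were 6 captured and 3 control regions, and within 1 Mb 38 and 42. Per Mb, the latter are 18.98 captured and 20.98 control regions, against 15.6 and 10.4 over the whole of chromosome 18. The MEG3 lists had 53 captured and 12 control regions there for TFR1, and 46 and 16 for TFR2. The authors' names are misleading here: the region named GATA6-AS1(+) lies 72748 bp from GATA6-AS1, while the one inside it carries the name RP11-627G18.1(+).

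The captured regions around the locus had ratios of 0.86 to 2.65 (log2), with a median of 1.38. The highest was a region of 200 bp in GREB1L (chr18:21372251-21372450, 6.29-fold), a gene that also held control regions of up to 3.5-fold. MIB1, an E3 ligase for Notch ligands, held 3 captured regions (2.59-fold, 2.11-fold and 2.78-fold). It also held control regions, from 2.16-fold to 4.36-fold towards no oligo. RBBP8, a DNA repair factor, held 1 captured region (2.39-fold) and a control region (3.44-fold). CABLES1 runs past the limit of 1 Mb, and the part of it inside the limit held 3 captured regions (3.5-fold, 2.75-fold and 2.03-fold). At a log2 ratio of at least 1.5, 11 of the 38 remained.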

How the data were processed

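Sequencing reads from 2 libraries per group were processed by the authors with FastQC and BWA 0.7.15-r1140 on hg38, per the submitters' processing notes. Not given in the sources used here are the program that called differential regions, its settings, and any scaling between libraries, so effects of depth or batch could not be checked. The deposited lists hold each region's position, gene names and a log2 ratio of the authors'; that it is log2 and not another log was read from the values. The lists were used as deposited, and positions are printed from 1.

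Genes came from the RefSeq table of GRCh38.p14 (19974 protein-coding genes). Strand and promoter sequence came from the RefSeq promoter table, which gave a single strand for 15812 genes. Of 36406 distinct names in the captured list, 23361 (64.2%) matched the gene table. A gene is counted at an end when a region lies within 1 kb of it, and a cluster is at least 3 regions with gaps of at most 5 kb. Genes were named by fixed rules: the most captured and control regions, the densest, the widest, the highest ratios at ends among regions of at least 1000 bp, the largest clusters and windows, and up to 8 members per list and 4 per family by ratio, plus members of a list with no region at an end. Frequent names in the authors' column and genes near GATA6-AS1 were picked after their values were seen. The members, lists and families were chosen with earlier results of these data known. Some genes that these rules select are not reported here. No test was run, since the lists hold no replicate values and come from the contrast itself. The counting code was tested on simulated regions. Python 3.11.15, numpy 2.4.6, pandas 2.3.3, scipy 1.17.1 and matplotlib 3.10.9 were used.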

Additional observations from a re-analysis of the deposited data

How the results depend on the processing

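No paired analysis was possible because the lists hold no value per library, and for the same reason no library could be left out. Leaving out chromosome 19 or X, and the settings tried on starts, far ends and the locus, were chosen after seeing the data. The 2.88 captured regions per control region became 1.97 for the top 50% by absolute log2 ratio, 1.83 at a log2 ratio of at least 1.5, 2.76 with regions within 200 bp joined and 2.74 without chromosome 19. On chromosome 19 the 7.29 became 5.64 at a log2 ratio of at least 1.5 and 12.4 in bases, and on chromosome 18 the 1.51 became 0.979, where control regions outnumber captured ones, and 2.09. The 49.5% of captured regions in clusters became 15.5% with gaps of at most 1 kb, 77.4% at 20 kb, 45.9% after joining and 46.9% without chromosome 19. The 46.8% of genes with a captured region at an end became 66.2% within 5 kb, 71.0% for whole genes, 24.5% at a log2 ratio of at least 1.5, 31.0% for the 50% of captured regions with the largest ratio, 44.8% without chromosome 19 and 48.8% without chromosome X. Starts went from 37.6% to 18.1% at a log2 ratio of at least 1.5 and 55.9% within 5 kb, and far ends from 22.9% to 9.17% and 46.7%, so starts stayed above far ends in both. The 10.2% of promoter windows captured became 16.7% with an overlap of 1 bp, 3.95% at a log2 ratio of at least 1.5 and 9.17% without chromosome 19. The 31.0% of captured windows with a run of at least 15 became 27.9%, 31.6% and 31.5%, each above the 20.7% of all windows. Near GATA6-AS1, 11 of 38 captured regions reached a log2 ratio of 1.5. Of 24 families, 17 were above the share of all genes, some of them by little. This became 13 for whole genes, 14 at a log2 ratio of at least 1.5 and 16 without chromosome X. Of 6 lists the counts were 6, 4, 5 and 6. Apart from what a setting removes by its construction, the cause of these moves was not tested. Depth is unknown, so what it limits could not be said.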

Other observations

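Family shares of genes with a captured region at an end differed in order between the oligos, and those differences were not tested. The comparisons share the no-oligo libraries. Against 46.8%, 28.2% and 22.2% of all protein-coding genes in the order GATA6-AS TFR1, then MEG3 TFR1, then MEG3 TFR2, histone genes had 12, 1 and 8 of 79, and olfactory receptors 15, 30 and 21 of 392. Paired box genes had 6, 5 and 0 of 9. Early neural genes had 20, 14 and 4 of 24, and HOX genes 36, 28 and 19 of 39. Olfactory receptor genes were thus fewer with GATA6-AS TFR1 than with either MEG3 oligo, although its captured list is the longest of the 3.

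In KANSL1 (chr17:46029916-46225367) 66 control and 23 captured regions lay in one gene, and MEG3 TFR1 and MEG3 TFR2 had 15 and 17 captured regions there. Its control cluster is the only one of the 5 largest that held captured regions.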
